A study of Mus musculus with 36 samples.

Results

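The nuclear-encoded genes of oxidative phosphorylation were taken from the count tables of mouse lung by their names. A row was a member if its symbol began with Nduf followed by a, b, c, s or v and a digit, was Sdha, Sdhb, Sdhc or Sdhd, or began with Uqcr, with Cox and a digit from 4 to 8, or with Atp5. Pseudogene rows were left out. The name rule itself uses no measured value, but the gene group was picked with earlier results of these data known. This gave 82 of 18120 rows in the female table and 81 of 18295 rows in the male table. The difference was Ndufa4, which was listed in females only and reached 0.209 CPM at most, where CPM is a count scaled to a common library size. By name, 37 members belonged to complex I, 4 to complex II, 8 to complex III, 16 to complex IV and 17 to complex V. The name rule also takes a few genes whose products are not core subunits, such as Cox7a2l, which takes part in assembling supercomplexes, and Ndufa4, whose product is found in complex IV.

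Oxidative phosphorylation takes place in the inner mitochondrial membrane. Complexes I and II pass electrons from NADH and succinate to ubiquinone, complex III passes them on to cytochrome c, and complex IV reduces oxygen, while the proton gradient that complexes I, III and IV build drives ATP synthesis by complex V. A small set of subunits is encoded by mitochondrial DNA and the members described here are encoded in the nucleus, translated in the cytosol and imported, except that complex II is wholly nuclear-encoded. Several subunits of complex IV exist as alternative copies, one widely expressed and another typical of heart and skeletal muscle or, for Cox4i2, of lung.

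The left lungs of 36 wild-type C57BL/6 mice were used for RNA sequencing, 3 females and 3 males in each of 6 groups. The groups received saline, MC252 oil (the crude oil of the Deepwater Horizon spill), the dispersant Corexit 9500, the dispersant Corexit 9527, 9500+oil or 9527+oil. Saline-accommodated fractions were given at a strength of 0.1 of the undiluted fraction, in 50 µL doses by oropharyngeal aspiration from 8 weeks of age on days 0, 7 and 13, and the lungs were taken on day 14. Each treatment was set against the saline mice of its own sex, so the 5 comparisons of a sex share the same 3 saline mice and are not independent of each other. Females and males are held in separate tables, and sex and any difference in handling between the tables cannot be told apart. Mice are numbered 1 to 18 within a sex.

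Total counts ran from 17501180 to 30011557 per library. In males, 5.27% to 7.68% of the counts fell on the mitochondrially encoded mt- rows. In 14 female libraries the share was 6.16% to 11.3%, but it was 45.1% in saline mouse 3, 22.6% in oil mouse 6, 38.4% in 9527 mouse 11 and 20.7% in 9500+oil mouse 14. These 4 libraries, each over 20%, also had low counts on GC-rich genes. The level of GC-rich genes relative to GC-poor ones (log2, set against the other libraries and without the members) was -2.62 to -1.80 in them and -0.59 to 0.26 in the rest of the females. An RNA integrity number of at least 8.0 was stated for all specimens. Female results are therefore given with and without these 4 libraries. The tissue label was checked by 6 lung epithelial and endothelial markers, whose summed level was 11912 to 39671 CPM over all libraries.

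The members were short genes. Their median transcript length was 681.5 nt, against 1979 nt over the 17813 names matched directly to the GENCODE mouse annotation of GRCm38, and their median GC content was 52.5% against 50.8%. Chromosome 7 held 9 members and chromosome X held 3. Promoter windows of 300 bases around the transcription start were found in RefSeq (GRCm38.p6) for 67 members. The windows were searched on both strands for motifs of 4 factors or families known to act on respiratory chain genes, namely GCGC, any 2 bases and GCGC for NRF1, CCGGAAG for ETS factors such as NRF2, GCCATNTT for YY1 and AAGGTCA for the oestrogen-related receptors. At least 1 of them was found in 42 members (62.7%), against 23.2% of 27025 genes with a window and 31.8% of the 12601 that were measured here. The NRF1 motif was found in 25.4% of the members, 6.43% of all genes and 11.3% of those measured, and the ETS motif in 22.4%, 9.12% and 14.8%. The YY1 motif was found in 22.4%, 6.23% and 7.47%, and the receptor motif in 11.9%, 4.66% and 3.47%. The window of a member was the one nearest its GENCODE start, while the shares of all genes used the first window listed for each gene. The shares are therefore not like for like. A match of letters is a description of the window and not a bound site.

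The promoters of 4 members are shown because their genes have low p-values in the results that follow, Atp5e and Ndufa7 in females and Ndufa1 and Ndufs6 in males. Cox6c, which ranks between Atp5e and Ndufa7, had no window in the table used. Capitals mark a motif. The Atp5e window (chr2:174464052-174464351, minus strand) holds an ETS and a receptor motif, and the Ndufs6 window (chr13:73328433-73328732, minus strand) holds an NRF1 and a YY1 motif. The windows of Ndufa7 (chr17:33824322-33824621, plus strand) and Ndufa1 (chrX:37191189-37191488, minus strand) hold none of the 4. All are written 5′ to 3′ on the strand of the gene.
Atp5e: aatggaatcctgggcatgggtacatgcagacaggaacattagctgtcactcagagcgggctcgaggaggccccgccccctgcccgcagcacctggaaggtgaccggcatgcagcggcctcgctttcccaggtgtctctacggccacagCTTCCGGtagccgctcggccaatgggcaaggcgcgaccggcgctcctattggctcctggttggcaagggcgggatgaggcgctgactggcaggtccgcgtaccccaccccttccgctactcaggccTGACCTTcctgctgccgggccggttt
Ndufs6: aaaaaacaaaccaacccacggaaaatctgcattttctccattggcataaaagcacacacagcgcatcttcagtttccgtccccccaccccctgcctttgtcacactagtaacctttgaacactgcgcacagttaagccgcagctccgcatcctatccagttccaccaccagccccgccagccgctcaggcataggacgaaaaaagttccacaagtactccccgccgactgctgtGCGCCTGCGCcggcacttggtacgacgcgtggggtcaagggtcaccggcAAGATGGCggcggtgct
Ndufa7: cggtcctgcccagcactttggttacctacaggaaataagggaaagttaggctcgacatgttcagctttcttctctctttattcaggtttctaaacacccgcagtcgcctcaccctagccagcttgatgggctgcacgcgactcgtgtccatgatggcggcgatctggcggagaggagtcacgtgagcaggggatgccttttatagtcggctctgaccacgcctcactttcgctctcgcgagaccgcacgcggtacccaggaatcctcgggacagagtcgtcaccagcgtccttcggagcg
Ndufa1: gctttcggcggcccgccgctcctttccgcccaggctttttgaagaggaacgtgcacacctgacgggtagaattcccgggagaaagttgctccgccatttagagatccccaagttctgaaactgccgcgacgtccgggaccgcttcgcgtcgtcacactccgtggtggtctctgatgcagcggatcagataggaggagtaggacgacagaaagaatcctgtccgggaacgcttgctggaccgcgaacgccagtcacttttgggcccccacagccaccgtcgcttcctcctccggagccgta

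The members together took 0.374% to 0.488% of all counts in males. They took 0.350% to 0.636% in the 14 female libraries and 0.145% to 0.345% in the 4 female libraries rich in mt- counts. Levels are compared between genes as CPM per kb of transcript. A gene's length was the median over its annotated protein-coding transcripts, so orders between genes depend on the lengths used. In complex I, Ndufa6 (97.3 CPM per kb over the male libraries) and Ndufb10 (87.4), both accessory subunits, had the highest mean levels. In females Ndufa6 averaged 119 and Ndufb10 90.1 over all libraries, but without the 4 rich in mt- counts the order turned, to 101 for Ndufb10 and 86.9 for Ndufa6. In complex II the catalytic flavoprotein Sdha stood first, at 104 CPM per kb in females and 96.7 in males, above the membrane anchor Sdhc at 38.2 and 57.5. The other anchor, Sdhd, was lowest, at 24.9 and 32.5 CPM per kb. Per kb, the iron-sulphur subunit Sdhb ranged from 40.0 to 50.7 in males, which overlapped the 50.4 to 66.1 of Sdhc, while Sdha at 87.0 to 103 lay above all 3.

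In complex III the hinge protein Uqcrh averaged 152 CPM per kb in males and Uqcrb, a small accessory subunit, 132. In females Uqcrb averaged 305 and Uqcrh 187 over all libraries, and 158 and 167 without the 4 rich in mt- counts, so that the order turned to that of the males. In complex IV, Cox6a1 (222 CPM per kb) and Cox8a (178) led in males, and Cox7a2l (197) and Cox6a1 (151) in females over all libraries. Without the 4 libraries Cox6a1 (180) stood above Cox7a2l (160) in females too. In complex V the catalytic Atp5b was highest in both sexes, at 222 CPM per kb in males and 179 in females (206 without the 4 libraries). It was followed by the peripheral stalk subunit Atp5h (162) in males and by Atp5a1, the other large subunit of the catalytic head, in females (139, and 140 without the 4 libraries).

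Where a subunit of complex IV has alternative copies, the widely expressed copy was the higher one in males. Median levels in males were 135 CPM per kb for Cox4i1 and 45.3 for Cox4i2, 221 for Cox6a1 and 31.3 for Cox6a2, and 145 for Cox6b1 and 19.9 for Cox6b2. They were 51.3 for Cox7a2 and 4.74 for Cox7a1, and 175 for Cox8a and 2.85 for Cox8b. For each of these pairs the ranges over the 18 males did not overlap, with Cox4i1 for example at 98.9 to 165.5 and Cox4i2 at 35.9 to 55.1. Of the 3 genes that encode the same c-ring subunit of complex V, Atp5g3 had a male median of 84.6, Atp5g2 of 18.2 and Atp5g1 of 13.4 CPM per kb. The ranges of Atp5g2 and Atp5g1 overlapped. The lengths used were 718.5 nt for Atp5g3, 683 nt for Atp5g2 and 2675.5 nt for Atp5g1, and the place of Atp5g1 below Atp5g2 rests on them. Ndufa4 had a female median of 0 and its relative Ndufa4l2 one of 34.4 CPM per kb. However, Ndufa4 has near-identical copies elsewhere in the genome that can take its reads, and their part in its level was not tested. Cox6a2, Cox7a1 and Cox8b are the copies known from heart and skeletal muscle. The summed level of 10 cardiac muscle markers was 191 to 685 CPM in females and 254 to 613 CPM in males, and its part in the level of these 3 copies was not tested. Cox8c and Cox7b2 were in neither table.

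**Figure D1:**
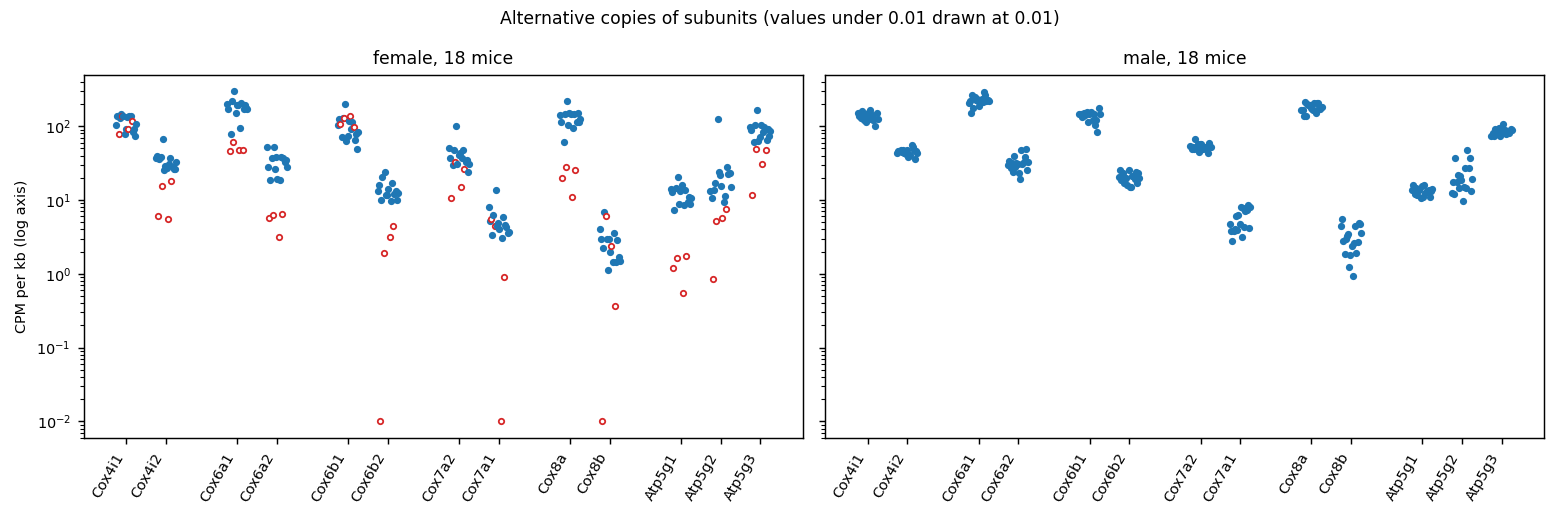
Levels of alternative copies of one subunit in CPM per kb of transcript, on a log axis with values under 0.01 drawn at 0.01, 1 point per mouse, for females and males. Red open symbols are the 4 female libraries with over 20% of counts on mt- rows, and in males the ranges of the widely expressed copies and their muscle, testis or lung copies (Cox4 to Cox8) do not overlap.

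The 4 libraries rich in mt- counts had low levels of most members but not of all. Set against the other female libraries, the median log2 deviation of the members was -1.38 in saline mouse 3, -0.25 in oil mouse 6, -1.02 in 9527 mouse 11 and -0.57 in 9500+oil mouse 14. Across 81 members the deviation went with GC content, with Pearson's r of -0.40, -0.51, -0.49 and -0.48, points which share a library and are given as a description. Cox8a, with a GC content of 58.5%, was at 10.8, 15.3, 5.96 and 14.1 CPM in these 4 libraries and at 33.2 to 122 CPM in the others. Uqcrb, with a GC content of 42.2%, went the other way and was at 585, 344, 565 and 257 CPM, against 55.7 to 205 CPM.

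Summed over a complex, saline mouse 3 and 9527 mouse 11 stood apart most, while the sums of complexes I, III and V in oil mouse 6 and 9500+oil mouse 14 lay within the range of the other 14 females. The complex I members summed to 699 CPM in saline mouse 3, against 1154 and 1062 CPM in saline mice 1 and 2, and those of complex V to 767 CPM against 1431 and 1579. The complex III members summed to 762 CPM in saline mouse 3, above the 481 and 384 CPM of the other saline mice, but 585 CPM of it was Uqcrb. Without Uqcrb the complex III sum was 177 CPM in saline mouse 3, 261 in oil mouse 6, 231 in 9527 mouse 11 and 222 in 9500+oil mouse 14, against 244 to 536 CPM in the 14 females. Uqcr11 was among the lowest of these members, with a log2 deviation of -5.70 in saline mouse 3. In saline mouse 3, 12 members were listed at 0. The female library with the highest sum of members was 9500 mouse 7, at 6068 CPM against 3120 and 3751 CPM in the other females given 9500. Its mt- share was 11.3%, the highest of the 14, and its log2 ratio of short over long genes, 0.60, was the highest of all libraries. In bulk lung RNA, fewer cells of a type and less RNA per cell cannot be told apart.

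**Figure D2:**
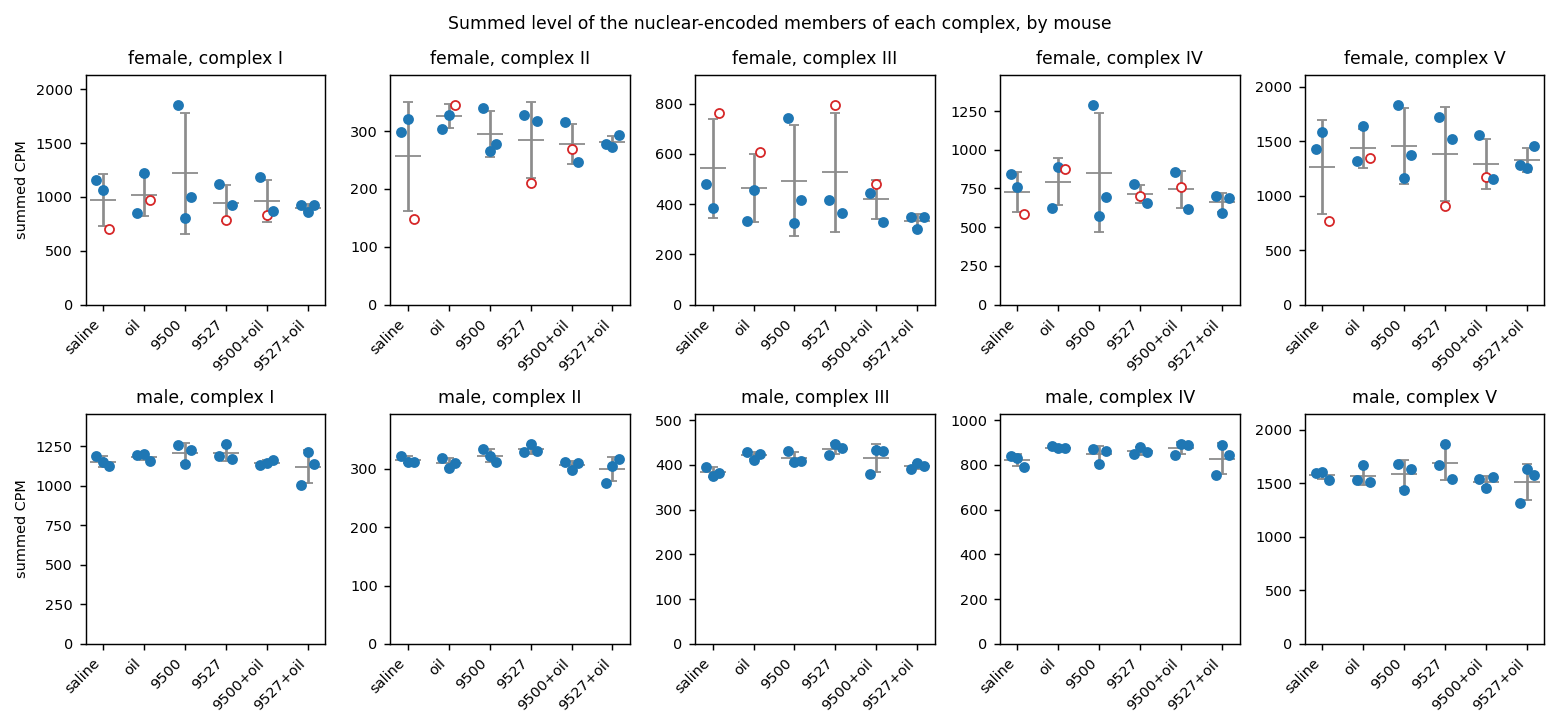
Summed CPM of the members of each complex in every mouse, by treatment and sex, with a grey bar for the mean and its SD over 3 mice. Red open symbols mark the 4 female libraries with over 20% of counts on mt- rows, in which complex I and V sums were low in saline mouse 3 (699 and 767 CPM) while its complex III sum was high (762 CPM, of which Uqcrb made up 585 CPM).

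With all female libraries, no member passed the adjusted test under any treatment. By edgeR's quasi-likelihood test with Benjamini-Hochberg adjustment over all genes, 0 of the 80 members tested passed an adjusted p of 0.05 in any of the 5 female comparisons, where 0% of all genes passed. DESeq2 and limma's voom with quality weights also called 0 members in each. Their median log2 fold change was 0.09 with oil, 0.41 with 9500, 0.01 with 9527, 0.03 with 9500+oil and -0.03 with 9527+oil, beside -0.01, 0.09, 0.03, 0.04 and 0.09 over all genes. At an unadjusted p under 0.05, 1 member was higher with 9500 (0.155% of all genes were) and 5 were lower with 9527+oil (0.861% of all genes). The members higher were otherwise 0, beside 0.0472% of all genes with oil, 0.247% with 9527, 0.0135% with 9500+oil and 0.242% with 9527+oil. The members lower were otherwise 0 too, beside 0.0607%, 0.209%, 0.02% and 0.142% of all genes with oil, 9500, 9527 and 9500+oil.

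The 5 members with a low p in females given 9527+oil were Cox7b and Uqcrh, Atp5h and Atp5c1 of complex V, and the complex I subunit Ndufv3. Cox7b, an X-linked small subunit of complex IV, was at 36.4, 35.6 and 37.7 CPM in the saline females and at 26.3, 18.4 and 24.9 CPM with 9527+oil. Uqcrh was at 91.6, 79.5 and 121 CPM in saline and at 66.3, 39.8 and 61.2 CPM with 9527+oil, and Atp5h at 80.9, 95.9 and 93.2 CPM and 60.2, 47.5 and 71.1 CPM. In these 3, picked for their low p, the groups did not overlap, saline mouse 3 included. Every treated mouse was below every saline mouse in 13 of the 80 members and in 7.2% of all genes. The log2 fold changes were -0.67 ± 0.24 (SE) for Cox7b, -0.81 ± 0.30 for Uqcrh and -0.60 ± 0.24 for Atp5h, and their adjusted p was 0.914 in edgeR's quasi-likelihood test. With GC and length offsets the value of Cox7b was -0.18.

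Without the 4 libraries, which leaves 2 saline females, most members had lower levels in the females given 9527+oil, but 0 passed adjustment. Of 80 members, 76 were lower and 4 higher, with a median log2 fold change of -0.34 beside -0.01 over all 15147 genes. Lower were 35 of 35 members of complex I, 4 of 4 of complex II, 8 of 8 of complex III, 15 of 16 of complex IV and 14 of 17 of complex V, with medians of -0.28, -0.34, -0.40, -0.47 and -0.37. At an unadjusted p under 0.05, 36 members were lower and 1 was higher, where 5.96% of all genes were lower and 6.35% higher. After adjustment by edgeR's quasi-likelihood test 0 members passed (0.0132% of all genes did), voom with quality weights called 0 as well, and the lowest adjusted p of a member was 0.306. In 49 of the 80 members each of the 3 treated mice was below both saline mice, which 16.3% of all genes showed, and in 1 member each was above, which 14.8% of all genes showed. In males 5 of 81 members had every 9527+oil mouse below every saline mouse and 5 had every one above, beside 5.91% and 5.92% of all genes.

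**Figure D3:**
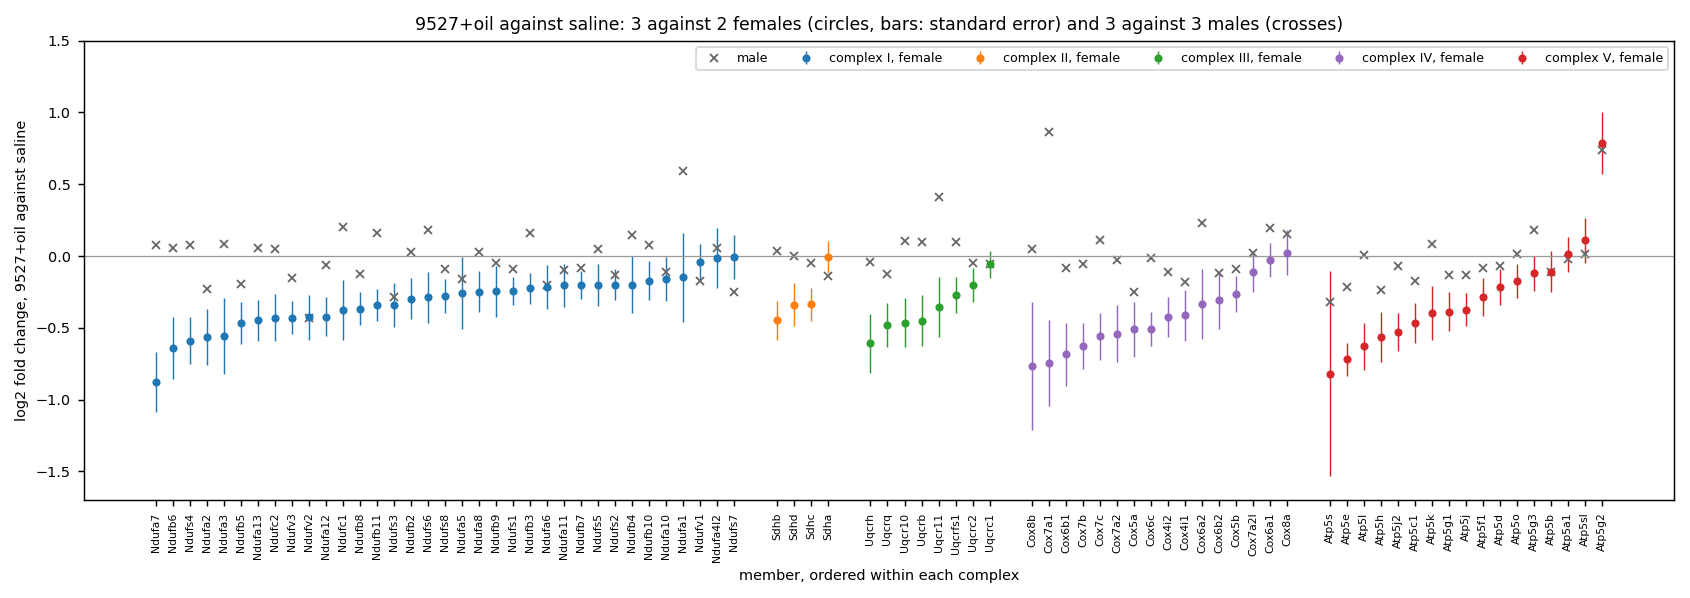
Log2 fold changes of the members in females given 9527+oil against saline, grouped by complex, without the libraries over 20% mt- (3 against 2 mice, circles with bars for the SE), and in males (3 against 3, crosses). In females, of 80 members 76 lie below 0 and the medians of complexes I to V are -0.28, -0.34, -0.40, -0.47 and -0.37.

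The members with the smallest p in this comparison were Atp5e, Cox6c and Ndufa7. Atp5e, the epsilon subunit of the central stalk of ATP synthase (chromosome 2, 174461072 to 174464105), was at 19.6 and 19.6 CPM in saline mice 1 and 2 and at 11.9, 11.8 and 11.9 CPM with 9527+oil. Saline mouse 3 was at 1.99 CPM, below all of them. Its log2 fold change was -0.72 ± 0.12 (SE), for which edgeR's quasi-likelihood test gave an adjusted p of 0.306 and DESeq2 one of 0.00118. With all libraries it was -0.22.

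Cox6c, a nuclear-encoded subunit of complex IV (chromosome 15, 35925886 to 35938246), was at 43.7 and 42.0 CPM in saline mice 1 and 2, at 40.5 CPM in saline mouse 3 and at 30.5, 26.7 and 32.9 CPM with 9527+oil. The groups did not overlap with or without saline mouse 3. Its log2 fold change was -0.51 ± 0.12, for which edgeR's quasi-likelihood test gave an adjusted p of 0.315 and DESeq2 one of 0.0425. Ndufa7, an accessory subunit of complex I (chromosome 17, 33824572 to 33838317), was at 40.5 and 29.9 CPM in saline mice 1 and 2, at 0 in saline mouse 3 and at 24.0, 15.6 and 17.4 CPM with 9527+oil. The log2 fold change was -0.88 ± 0.21, with edgeR's test giving an adjusted p of 0.315 and DESeq2 one of 0.0167. With all libraries it was -0.31, and without saline mouse 1 alone it turned to 0.34. DESeq2 called these 3 members, where it called 1.49% of all genes.

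The 1 member higher at an unadjusted p under 0.05 was Atp5g2, at 8.93 and 7.15 CPM in the saline females and 15.2, 15.9 and 10.4 CPM with 9527+oil (log2 fold change 0.79 ± 0.22, adjusted p 0.325 in edgeR's test). The Sdh genes were all lower, Sdhb with a log2 fold change of -0.45 ± 0.13 and Sdhc of -0.34 ± 0.12 at unadjusted p of 0.0107 and 0.0199 in the fit across all genes. The lower levels went with other values of the same libraries. The log2 ratio of short over long genes was -0.11, -0.25 and -0.03 in the 3 females given 9527+oil and 0.04 and 0.10 in saline mice 1 and 2. That of GC-rich over GC-poor genes was 0.16, 0.26 and 0.22 with 9527+oil and 0.05 and 0.07 in these saline mice. The part of these shifts in the result was not tested separately. With GC and length offsets in the fit, the median was -0.22 and 20 members were lower at an unadjusted p under 0.05, beside 3.8% of all genes.

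The summed level of the members was 3538, 3269 and 3702 CPM with 9527+oil and 4207 and 4103 CPM in the saline females. These 3 sums lay inside the 3120 to 6068 CPM of the females given the other treatments. With all 6 female groups in one fit, which takes the spread from all mice without high mt- shares, the median stayed at -0.34 and 0 members were lower at an unadjusted p under 0.05, beside 1.03% of all genes.

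The other female treatments without the 4 libraries gave smaller medians. They were -0.07 with oil (30 of 80 members higher), 0.09 with 9500 (53 higher), -0.06 with 9527 (27 higher) and -0.14 with 9500+oil (11 higher). By edgeR's quasi-likelihood test 0 members passed an adjusted p of 0.05 in each, beside 0% of all genes, and DESeq2 and voom also called 0. Past an unadjusted p of 0.05, 1 member was higher with 9500 (0.996% of all genes) and 2 were lower with 9527 (2.01%). No other member was past that threshold, beside 0.366% of all genes higher and 0.593% lower with oil, 0.64% lower with 9500, 2.97% higher with 9527, and 0.448% higher and 0.789% lower with 9500+oil. Single libraries set these medians. The oil median was -0.40 without mouse 5, the 9500 median -0.33 without mouse 7, the 9527 median -0.24 without mouse 10 and the 9500+oil median -0.43 without mouse 13. Apart from 9500, these fits left 1 treated mouse, which is assumed to vary like the saline mice.

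Atp5g2 was the member higher with 9500 at an unadjusted p under 0.05, and among the 80 members that passed the filter on low counts (Ndufa4 and Ndufa9 did not) it had the largest fold change in females. It was at 84.1, 16.3 and 14.8 CPM with 9500 and at 8.93, 7.15 and 0.586 CPM in saline, the last value from saline mouse 3. The groups did not overlap, and mouse 7 stood far above the rest. Its log2 fold change was 2.25 ± 0.87 without saline mouse 3 and 2.78 ± 1.11 with it, and the adjusted p rounded to 1 in both fits of edgeR's test. Without mouse 7 it was 1.47 with all other libraries kept. The members lower with 9527 at an unadjusted p under 0.05 were Cox6a2, at 13.2 and 12.8 CPM against 35.5 and 18.9 CPM in saline, and Ndufa4l2, a relative of Ndufa4 known from hypoxic cells and pericytes, at 22.9 and 19.1 CPM against 43.9 and 25.9 CPM. Saline mouse 1 was the highest in both, and their adjusted p was 0.809 and 0.977 in edgeR's test. With all other libraries kept, the log2 fold change of Cox6a2 went from -1.04 to -0.29 without saline mouse 1 and to -0.58 without 9527 mouse 11. Of 10 cardiac muscle markers 8 were lower in the same comparison (median log2 fold change -0.33), as were 4 of 6 markers of pericytes and smooth muscle (-0.30), and their part in these values was not tested.

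In males, where all libraries had low mt- shares, the members as a list stayed near 0. The median log2 fold change was 0.01 with oil (43 of 81 higher), 0.03 with 9500 (46 higher), 0.08 with 9527 (60 higher), -0.03 with 9500+oil (34 higher) and -0.05 with 9527+oil (36 higher). The medians over all genes lay between -0.013 and -0.0037. By edgeR's quasi-likelihood test 0 members passed an adjusted p of 0.05 in each, beside 0.00671% of all genes with oil, 0.00662% with 9500, 0.114% with 9527, 0% with 9500+oil and 0.00669% with 9527+oil. Voom with quality weights called 0 in each, and DESeq2 called 1 with oil, 1 with 9500 and 2 with 9527.

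At an unadjusted p under 0.05 in males, 5 members were higher and 0 lower with oil, beside 5.75% and 2.45% of all genes. With 9500, 7 were higher and 0 lower, beside 4% and 2.36%, and with 9527, 6 were higher and 1 lower, beside 7.96% and 5.78%. With 9500+oil, 4 were higher and 1 lower, beside 5.19% and 4.04%, and with 9527+oil, 3 were higher and 2 lower, beside 3.54% and 2%. Most of these counts were near the shares of all genes, and the 7 of 81 members with 9500 stood furthest above.

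**Figure D4:**
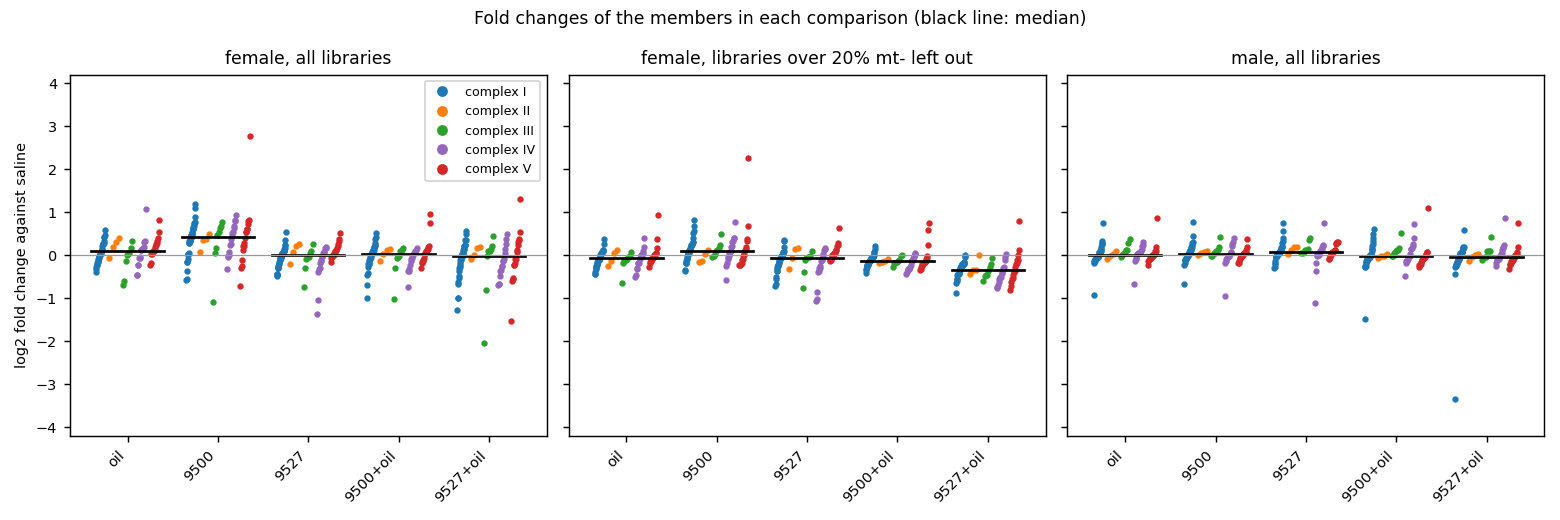
Log2 fold changes of the members for each treatment against saline in each sex, females with and without the libraries over 20% mt-. The medians of the males lie between -0.05 and 0.08, and the lowest median is -0.34 in females given 9527+oil without those libraries.

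Among the members with low p-values in males were Ndufa1 and Ndufs6, both of complex I. Ndufa1 is an X-linked small membrane subunit (chromosome X, 37187588 to 37191163). It was at 26.2, 21.4 and 22.7 CPM in saline, and at 42.9, 30.1 and 44.8 CPM with oil, 35.6, 53.5 and 31.4 CPM with 9500 and 33.2, 36.5 and 48.6 CPM with 9527. With 9500+oil it was at 25.9, 44.1 and 37.5 CPM and with 9527+oil at 45.7, 29.1 and 31.5 CPM. Of the 15 treated males, 14 lay above the highest saline mouse, the exception being 1 mouse given 9500+oil. At least 14 did so in 3 of 81 members, Ndufa1, Ndufs6 and Uqcrb, and in 1.42% of all genes, and as these 3 have low p-values against the same saline mice, the count is a description.

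The log2 fold changes of Ndufa1 were 0.74 ± 0.16 (SE) with oil, 0.77 ± 0.19 with 9500, 0.75 ± 0.16 with 9527, 0.61 ± 0.18 with 9500+oil and 0.59 ± 0.18 with 9527+oil. With 1 mouse left out the value went down to 0.52 with 9500 (without mouse 8), 0.44 with 9500+oil (without mouse 14) and 0.37 with 9527+oil (without mouse 16). In edgeR's quasi-likelihood test the adjusted p was 0.275, 0.688, 0.110, 0.506 and 0.885. DESeq2 called Ndufa1 with oil (adjusted p 0.00842), 9500 (0.0336) and 9527 (0.0027), where it called 1.25%, 0.324% and 3.94% of all genes. All 5 comparisons use the same 3 saline mice, so that they are 1 set of controls seen 5 times. In females Ndufa1 was above the highest saline mouse in 1 of 15 treated mice.

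Ndufs6, a subunit near the iron-sulphur clusters of complex I that is needed for its assembly (chromosome 13, 73319838 to 73328542), was at 22.2, 25.2 and 24.2 CPM in saline males. It was at 29.5, 28.9 and 29.2 CPM with oil, 29.6, 39.3 and 29.3 CPM with 9500 and 31.6, 36.8 and 37.7 CPM with 9527. With 9500+oil it was at 27.5, 36.3 and 30.2 CPM and with 9527+oil at 29.9, 23.4 and 27.8 CPM. Again 14 of 15 treated males lay above the highest saline mouse, the exception being 1 mouse given 9527+oil. In females 3 of 15 did, the highest saline level being that of mouse 3, and 1 of 12 without the libraries rich in mt- counts.

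Its log2 fold change was 0.57 ± 0.12 with 9527 (edgeR's quasi-likelihood test, adjusted p 0.103) and 0.45 ± 0.13 with 9500 and 0.39 ± 0.13 with 9500+oil. DESeq2 called Ndufs6 with 9527 (adjusted p 0.00511), and edgeR with all 6 male groups in one fit did so too (adjusted p 0.0406), where that fit called 1.83% of all genes. Uqcrb was at 60.3, 64.4 and 61.9 CPM in saline and at 70.7, 86.0 and 81.2 CPM with 9527, a log2 fold change of 0.35 ± 0.10 (adjusted p 0.179 in edgeR's test). With oil it was at 75.9, 73.9 and 77.3 CPM, 0.28 ± 0.08 higher on the log2 scale. Here too 14 of 15 treated males lay above the highest saline mouse, 1 of them level with it at 64.4 CPM to 3 digits. In females 0 of 15 did, again with saline mouse 3 the highest, and 1 of 12 without the libraries rich in mt- counts.

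**Figure D5:**
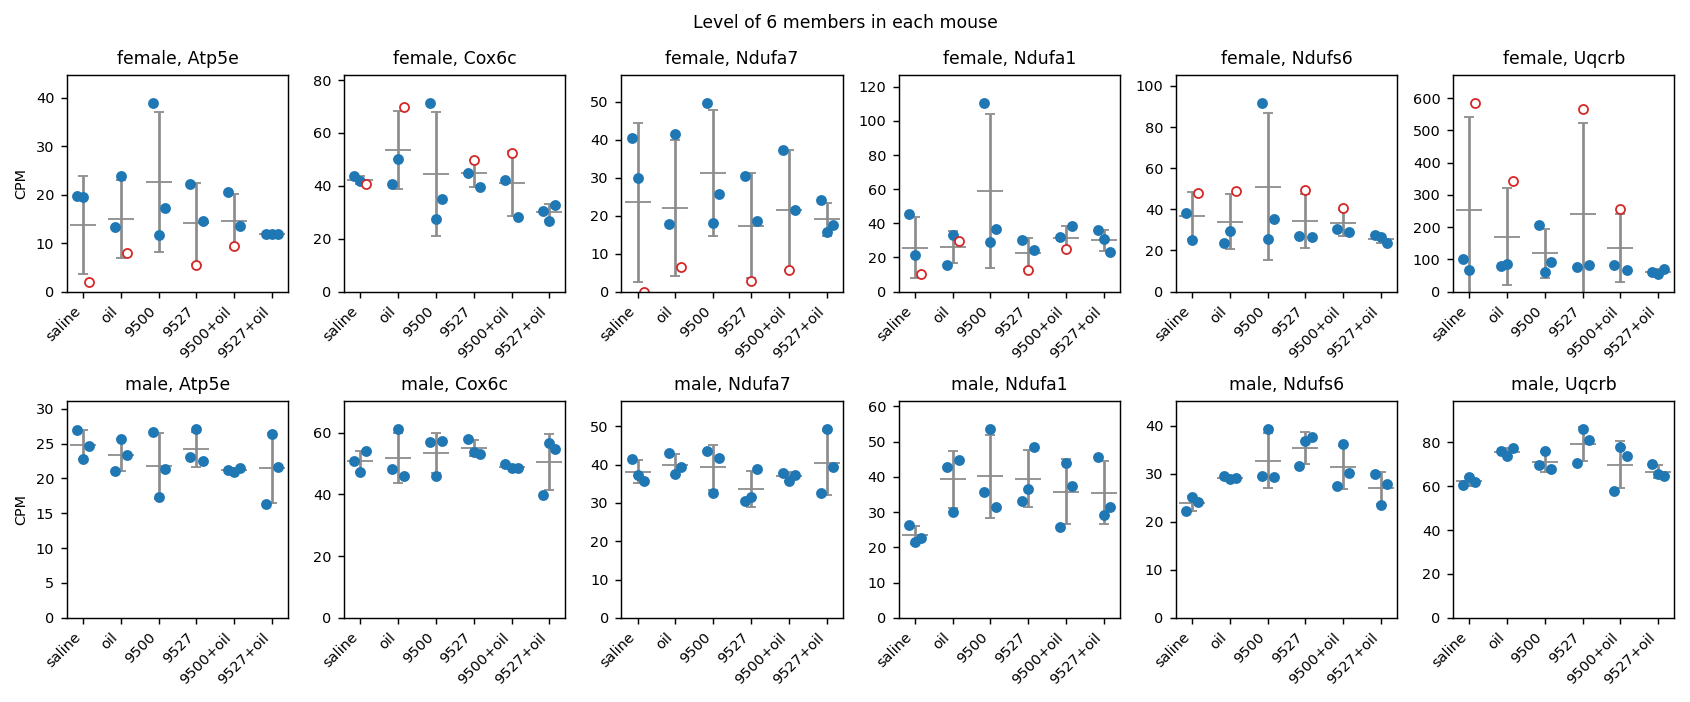
CPM in every mouse for named members, by treatment, with grey bars for the mean and SD of 3 mice and red open symbols for the 4 female libraries over 20% mt-. In males Ndufa1 and Ndufs6 are each above the highest saline mouse in 14 of 15 treated mice.

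The other members named in males were less regular. Ndufa3, an accessory subunit of complex I, was at 29.9, 30.6 and 27.1 CPM in saline and 36.7, 33.9 and 40.6 CPM with oil (log2 fold change 0.34 ± 0.11, adjusted p 0.430 in edgeR's test). Uqcr11, the smallest subunit of complex III, was at 47.8, 42.9 and 32.1 CPM in saline, 55.2, 62.5 and 47.0 CPM with 9500 and 58.8, 52.2 and 52.5 CPM with 9527+oil. It did not overlap with saline under 9527+oil and overlapped slightly under 9500, and without saline mouse 3 its log2 fold change went from 0.41 to 0.26 with 9527+oil and from 0.42 to 0.27 with 9500. Atp5g2 was at 8.50, 11.8 and 8.22 CPM in saline and 9.89, 32.4 and 18.8 CPM with 9500+oil, which overlapped, and its log2 fold change went from 1.10 to 0.60 without mouse 14.

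Ndufa9 had the largest fold change in males and is uncertain. It was at 4.28, 7.56 and 9.71 CPM in saline and at 0, 2.31 and 0 CPM with 9527+oil, but mice of the other treated groups were at 0 as well, and in females all 3 saline mice were at 0 and 9500+oil mouse 14 was at 19.3 CPM. Levels that jump between 0 and several CPM within a group are given as listed. Ndufa9, Atp5g1, Atp5g2 and Atp5g3 have near-identical copies or pseudogenes in the mouse genome between which reads can be split. The part of such copies in these levels was not tested.

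In the test of any difference among the 6 groups, edgeR's quasi-likelihood test called 0 members at an adjusted p of 0.05 in males (0.135% of all genes), in females (0.0129%) or in females without the 4 libraries (0%). At an unadjusted p under 0.05, 3 of 81 members passed in males, beside 10.4% of all genes, namely Ndufs6, Cox4i2 and Uqcrb. Cox4i2, the lung copy of subunit 4, was at 28.1, 28.8 and 29.9 CPM with 9527 and at 40.2, 38.6 and 34.8 CPM with 9500+oil, with saline between them at 31.7, 33.5 and 33.2 CPM. In females 2 of 81 passed with all libraries, beside 1.35%, and 2 without the 4, beside 4.23%, and both times they were Atp5g2 and Ndufa9. DESeq2 called Ndufs6 in males (adjusted p 0.0372, 3.95% of all genes called). Limma's voom with quality weights called Atp5c1, Atp5h, Atp5s and Cox6a1 in females, where it called 7.24% of all genes.

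Whether a treatment acted differently in the sexes was tested by an interaction term on the genes of both tables. With all libraries edgeR's quasi-likelihood test called 0 of 81 members at an adjusted p of 0.05 for any treatment, and 0% of all genes, and DESeq2 called 0 members as well. At an unadjusted p under 0.05, 2 passed with oil, 0 with 9500, 1 with 9527, 1 with 9500+oil and 3 with 9527+oil, beside 1.65%, 0.726%, 0.352%, 0.509% and 2.39% of all genes.

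Without the 4 libraries again 0 members passed after adjustment, beside 0.00642% of all genes with oil, 0.0064% with 9527+oil and 0% with the others. Before adjustment, 17 of 81 members passed a p of 0.05 with 9527+oil, all of them lower in females than in males, where 6.73% of all genes passed. The median difference of the log2 fold changes, female minus male, was -0.29 over the members and -0.0024 over all genes. The lowest p was that of Cox7c, a small subunit of complex IV (difference -0.67, adjusted p 0.732 in edgeR's test). With oil, 9500, 9527 and 9500+oil, 2, 0, 4 and 1 members passed, beside 5.96%, 1.96%, 2.81% and 2.63% of all genes.

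Other mitochondrial genes, from lists of the pathway, were in part lower too in females given 9527+oil without the 4 libraries. In this comparison 5.96% of all genes were lower and 6.35% higher at an unadjusted p under 0.05, and after adjustment edgeR's test called 0 genes of the lists named here. Of 76 genes of the mitochondrial ribosome, which translates the mt- transcripts, 72 were lower (15 at an unadjusted p under 0.05, median log2 fold change -0.23). Of 42 assembly factors 33 were lower (6 at that p, median -0.15), and 7 of 7 nuclear subunits and carriers that the name rule does not reach were lower (4 at that p, median -0.35). Of 12 citric acid cycle genes 8 were lower. The 13 mt- subunits went the other way, with 9 higher (4 at that p, median 0.24), and so did 8 of 12 regulators of mitochondrial biogenesis. Among the marker lists, 8 of 10 cardiac muscle genes and 4 of 4 macrophage genes were lower (2 of each at that p). The cardiac genes summed to 463, 509 and 450 CPM with 9527+oil, between the 404 and 553 CPM of saline mice 1 and 2, and the macrophage genes to 444, 436 and 381 CPM, below their 619 and 607 CPM. Of 6 pericyte and smooth muscle markers 4 were higher (2 at that p), with sums of 868, 1131 and 870 CPM against 796 and 952 CPM. Of the 6 lung epithelial and endothelial markers 3 were lower and 3 higher, but their summed level was 26060, 22162 and 28143 CPM with 9527+oil and 33731 and 32407 CPM in saline mice 1 and 2. The part of these markers in the members' result was not tested.

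In males given 9527, where 60 of 81 members were higher, 68 of 76 genes of the mitochondrial ribosome were higher too (11 at an unadjusted p under 0.05, where 7.96% of all genes were higher, median 0.12), as were 12 of 13 mt- subunits. After adjustment in edgeR's test 0 of these genes passed. The 10 cardiac muscle markers were all lower (median -0.65), the 5 erythroid markers were all lower (median -1.09) and the 4 macrophage markers were all higher (median 0.88). The cardiac genes summed to 378, 254 and 444 CPM with 9527 and 454, 613 and 401 CPM in saline, which overlapped. The erythroid sums were 2719, 4048 and 6783 CPM against 8845, 12530 and 7531 CPM. Those of the macrophage genes were 759, 1531 and 1115 CPM against 549, 582 and 700 CPM. The part of these markers in the members' values was not tested. In males given 9527+oil, 42 of 76 mitochondrial ribosome genes and 25 of 41 assembly factors were lower, with medians of -0.03 and -0.09.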

How the data were processed

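The lung libraries of 36 mice were measured by stranded poly(A) RNA-seq. The deposited values are estimated counts per gene, 1 table per sex, which the authors made with Salmon on GRCm38 transcripts and tximport, as whole numbers. Samples were grouped from their labels, and total counts ran from 17501180 to 30011557. Rows with a repeated name (4 per table) held at most 0.0128% of counts and were left out. Each treatment was compared with the saline mice of its sex in edgeR 4.0.16 (R 4.3.3), with TMM, filterByExpr, the quasi-likelihood F-test and Benjamini-Hochberg adjustment over all genes. CPM used TMM-scaled library sizes. An any-difference test over 6 groups and a sex by treatment interaction used the same tools. P-values measure only the spread between these mice. Every pair of libraries differed by more than sampling noise (lowest chi-square per gene 10.9). Alternatives were DESeq2 1.42.0, voom with quality weights (limma 3.58.1), other scalings and filters, all 6 groups in one fit, GC and length offsets and leaving out each mouse.

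The members and lists were chosen with earlier results of these data known. Members were named by up to 3 smallest p-values under 0.05 per comparison, the 2 highest levels per kb in each complex, the 4 Sdh genes, alternative copies, calls by any test and the largest fold change in each sex. Gene positions are from GENCODE (GRCm38), and promoters from RefSeq (GRCm38.p6). Of the names in the tables, 98.7% matched the annotation directly or by synonym. The scripts were tested on simulated data.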

Additional observations from a re-analysis of the deposited data

How the results depend on the processing

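Of 534 values under another setting, 515 were classed as unchanged, as were 346 of 366 with 1 mouse left out. A named member's fold change was so classed if it kept its direction and side of the threshold. A count was so classed if it stayed equal or close, and a median if it moved by less than the pooled SD between libraries. In females that SD was 0.69 to 0.82 with all libraries, so a median could turn direction and still be classed as unchanged. DESeq2 called 1 member in males with oil, 1 with 9500, 2 with 9527 and 1 for any difference, and 3 in females given 9527+oil without the 4 libraries rich in mt- counts, where edgeR called 0. One fit of all 6 groups called 1 member in males with 9527, and voom with quality weights called 4 for any difference in females. In females given 9527+oil without those libraries, the members lower at an unadjusted p under 0.05 were 36 (5.96% of all genes), but 0 with all 6 groups in one fit (1.03%) and 20 with GC and length offsets (3.8%), where the median log2 fold change was -0.22. With 1 mouse left out they were 22 to 35, beside 3.33% to 6.7% of all genes, the lowest without saline mouse 1 (5.55%) and without 9527+oil mouse 17 (3.33%). The cause was not tested.

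With 1 mouse left out, the median log2 fold change ran from -0.011 to 0.054 in males with oil, and, without the 4 libraries, from -0.40 to 0.15 in females with oil, -0.24 to 0.068 with 9527 and -0.43 to 0.069 with 9500+oil. The count of members called ran from 0 to 1 in males with 9500+oil (1 without mouse 13), females with oil (1 without mouse 5) and females with 9527 (1 without mouse 10), each time Ndufa9, where 0.0199%, 0.169% and 0.172% of all genes were called. In the fits without the 4 libraries, leaving out a saline, oil, 9527 or 9500+oil mouse leaves 1 mouse in that arm, which is assumed to vary like the other arm, and Ndufa9 was at 0 in the saline females. Among the named members, directions turned for Ndufa4l2 in females with 9527 (0.29 with GC and length offsets, 0.35 without saline mouse 1). With 9527+oil they turned for Atp5e (0.13 without saline mouse 1 and 0.13 without saline mouse 2) and Ndufa7 (0.34 without saline mouse 1). Saline mouse 3 was kept in each case. With 1 mouse left out, these ran from -1.06 to 0.35 for Ndufa4l2, -0.72 to 0.13 for Atp5e and -0.88 to 0.34 for Ndufa7, the lowest without saline mouse 3. The alternatives on the fits without the 4 libraries were chosen after seeing the data, except leaving those libraries out and the fit of all 6 groups. No paired analysis was possible because the groups compared share no mouse number.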
